A study of Homo sapiens with 4 samples.

Results

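RNA levels of 38 genes for integrins and laminins were compared in NCC-IT-A3, a human embryonal carcinoma cell line (a germ cell tumour whose cells resemble the early embryo). The members were every protein-coding gene whose current symbol names an integrin alpha subunit (18 genes), an integrin beta subunit (8), or a laminin alpha, beta or gamma chain (5, 4 and 3), out of 27685 gene IDs in all. The rule used gene names and no measured value, but it was set with earlier results of these data known. In 1 group of 2 libraries the cells had received 100 nM barasertib, which blocks the mitotic kinase Aurora B, for 4 days, and in the other 2 the solvent DMSO. All 4 libraries came from the same line in serum-containing RPMI medium, and the labels do not name separate cultures. The p-values here therefore measure no more than the spread among these samples, possibly a technical one.

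Integrins are receptors that cells use to hold on to the matrix around them and to each other. Each receptor is a pair of an alpha and a beta subunit, and the pair decides which ligand is bound: ITGA5 with ITGB1 binds fibronectin, ITGAV with several beta subunits binds vitronectin, osteopontin and other proteins with an RGD motif, and ITGA6 with ITGB1 or ITGB4 binds laminin. Laminins are secreted trimers of an alpha, a beta and a gamma chain that build the basement membrane, and pluripotent cells in culture attach to them mainly through ITGA6 and ITGB1.

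With barasertib, ITGA5 rose 2.38-fold and ITGB4 fell to 0.359 of its level with DMSO, the largest rise and fall among the members, while LAMA1 rose 1.46-fold and LAMA2 fell to 0.735 (fold changes on the log2(TPM + 1) scale, which understates changes of low genes). TPM is transcript abundance per length as a share of the library. Of the 38 members, 22 averaged 1 TPM or more across the libraries and were tested. Among them 4 rose (ITGA5, ITGA7, ITGAV and LAMA1) and 5 fell (ITGB4, ITGA6, LAMA2, LAMB1 and LAMB2), with a Benjamini-Hochberg adjusted p under 0.05 in limma, taken over all 13938 tested genes. That is 18.2% and 22.7% of the tested members, against a background of 22.0% of all tested genes called higher and 7.44% called lower (29.5% in either direction). Of the members that rose, ITGA7 passed the filter only through its barasertib values. At a change of 2-fold or more 1 member was called in each direction, against 2.09% and 0.624% of all tested genes. Without overlap between the groups, 8 members were higher and 8 lower (36.4% each), against 49.1% and 19.7%. The summed level of the 38 genes was 718 ± 13.8 TPM in DMSO libraries and 714 ± 3.17 TPM with barasertib (mean ± SD, n = 2 libraries, as for all such values here).

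Of all called genes, 74.8% were higher in TPM, but 44.8% after median-of-ratios scaling and 50.9% after quantile normalisation, 2 scalings that shift the median log2 change over all genes (0.11 in TPM) by -0.12 each. Under all 3 scalings 3 members rose, that is all of the above except ITGA7, and the same 5 fell, or 13.6% and 22.7%, against 10.0% and 7.05% of all tested genes. The aligned bases behind the libraries, from the ratio of coverage to FPKM, were 4.22 to 4.59 Gb, and the log2 values of replicates differed with an SD of 0.25 in both groups. All 12 embryonal carcinoma markers were at a mean of at least 1 TPM. Of these 12 markers 6 were called higher and 2 lower, against 22.0% and 7.44% of all tested genes. POU5F1 was at 3616 ± 130 TPM in DMSO libraries and 3974 ± 35.4 TPM with barasertib. It was called higher in TPM (adjusted p = 0.0296) and after quantile normalisation (0.0018), but not after median-of-ratios scaling (0.981). SOX2 was at 451 ± 6.96 and 389.6 ± 11.8 TPM, and NANOG at 163 ± 6.26 and 252 ± 8.82 TPM. PODXL was at 320 and 326 TPM with DMSO, and its barasertib replicates differed, at 506 and 167 TPM. Markers of leukocytes, platelets and endothelium summed to at most 4.55, 0.389 and 0.515 TPM in any library, and those of endoderm to at most 4.98 TPM. The 7 trophoblast markers summed to 53.4 to 54.8 TPM with DMSO and 62.1 to 64.7 TPM with barasertib, of which TFAP2C alone made up 51.9 to 53.3 TPM and 57.9 to 60.1 TPM. On that list GATA3 was at 1.01 and 1.48 TPM with DMSO and 2.51 and 2.09 TPM with barasertib, HLA-G was listed at 0 with DMSO and was at 1.68 and 1.84 TPM with barasertib, CGB3 and KRT7 were listed at 0 throughout, and of the 2 tested markers (TFAP2C and GATA3) 0 were called. The part of such cells in the results was not tested. In bulk RNA, fewer cells of a type and less RNA per cell cannot be told apart.

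**Figure D1:**
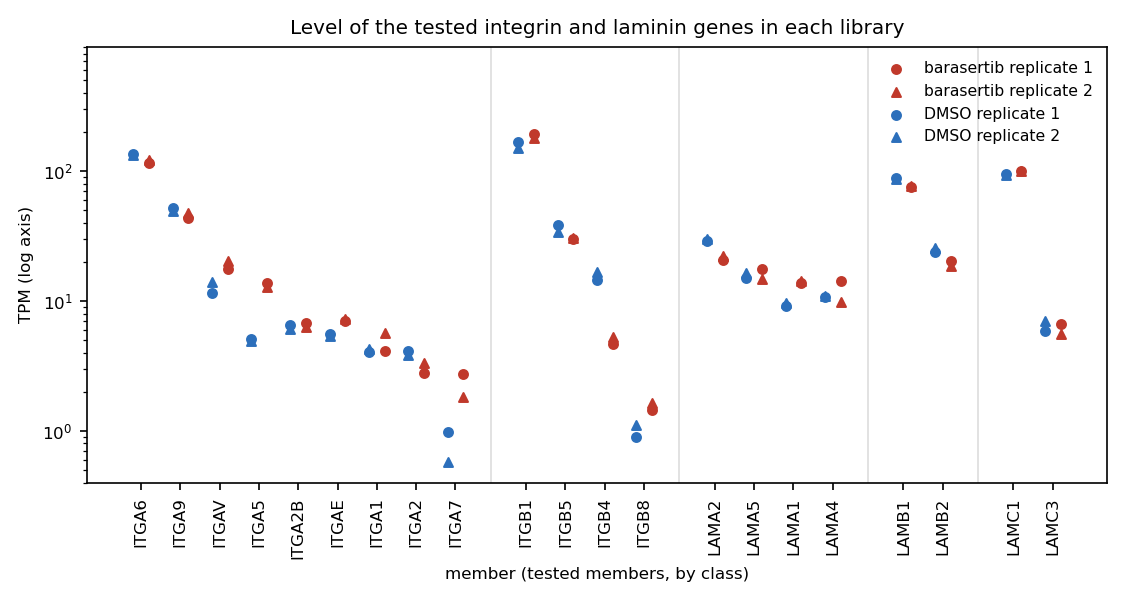
TPM (log axis) of 21 of the 22 tested members in the 4 libraries, by class and in order of mean level within a class. The red barasertib points lie apart from the blue DMSO points most widely for ITGA5 (above), ITGA7 (above) and ITGB4 (below).

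Among the beta subunits, ITGB1, the partner of most alpha subunits, was by far the most abundant. It was at 169 and 151 TPM in DMSO libraries and at 191 and 181 TPM with barasertib, so the groups did not overlap, with a log2 change of 0.22 ± 0.07 (SE). It missed the threshold (adjusted p = 0.0525). ITGB1 passed without DMSO replicate 1 (adjusted p = 0.0260), with a minimum of 5 TPM (0.0453), with robust moderation (0.0298) and with the replicate number as a block (0.0223), and over its alternative settings the adjusted p ran from 0.0223 to 0.408.

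ITGB4 carries a long cytoplasmic tail that links laminin-bound ITGA6 to keratin filaments in hemidesmosomes. It was at 14.6 and 16.7 TPM in DMSO libraries and at 4.66 and 5.30 TPM with barasertib. Every DMSO value was higher than both barasertib values, and ITGB4 fell by 1.48 on the log2 scale (SE 0.11, adjusted p = 0.000794). Of all 13938 tested genes, 28 had a more negative log2 change. The ITGB4 call held whichever library was left out (adjusted p of 0.000576 to 0.0142).

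ITGB5, a partner of ITGAV in binding vitronectin, was at 38.2 and 33.9 TPM with DMSO and 29.9 and 30.5 TPM with barasertib. The groups did not overlap, but its log2 change of -0.25 missed the threshold in TPM (adjusted p = 0.0589). It passed as lower after median-of-ratios scaling (adjusted p = 0.0195), after quantile normalisation (0.0306), in FPKM (0.0448), with robust moderation (0.0421) and without DMSO replicate 2 (0.0454), with values between 0.0195 and 0.269 across all settings tried. ITGB8, which is overlapped by an antisense gene and with ITGAV binds latent TGF-beta, was low, at 0.898 and 1.12 TPM with DMSO and 1.44 and 1.65 TPM with barasertib (adjusted p = 0.205).

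ITGA5, the alpha subunit of the classical fibronectin receptor, showed the largest rise among the members on the log2(TPM + 1) scale. It was at 5.07 and 4.87 TPM in DMSO libraries and at 13.7 and 12.7 TPM with barasertib. Replicates lay close together and the groups far apart, with a log2 change of 1.25 ± 0.10 (SE, adjusted p = 0.000825). A larger log2 change was seen in 139 of all tested genes. The order among the members depended on the scale. With 0.1 instead of 1 added to TPM, the log2 change was 1.39 for ITGA5 and 1.46 for ITGA7. The ITGA5 call held whichever library was left out (adjusted p of 0.000915 to 0.0157). ITGA5 (gene ID 3678) spans chromosome 12 from 54789045 to 54813050 on the minus strand in the hg19 coordinates of the files, and ITGB4 (gene ID 3691) spans chromosome 17 from 73717408 to 73753899 on the plus strand.

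ITGAV, the alpha subunit of the vitronectin receptors, was at 11.6 and 14.0 TPM in DMSO libraries and at 17.8 and 20.2 TPM with barasertib. Its groups did not overlap, although the DMSO values differed from each other by about as much as the barasertib values did. ITGAV rose by a log2 change of 0.53 ± 0.12 (SE, adjusted p = 0.0195). ITGAV missed the threshold when barasertib replicate 1 (adjusted p = 0.0567) or 2 (0.10) or DMSO replicate 1 (0.0552) was left out, and with no filter on low values (0.0594), with values between 0.00759 and 0.10 across all settings tried.

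Start regions of 4 of the called members are shown, because called members moved in opposite directions. Sequences are from RefSeq (GRCh38.p14), whose table matched 26 of the 38 members. That table held no entry for the called members ITGB4, ITGA7 and LAMA1, and 2 entries each for ITGA6 and ITGAV. Of the called members, the 4 with a single entry are printed, as the 250 bases before the start, 5′ to 3′ on the gene's strand. Capitals mark GC boxes (GGGCGG) and TEAD sites (GGAATG) on either strand. ITGA5, which rose, is at chr12:54419267-54419516 (minus strand). The members that fell are LAMA2 at chr6:128882888-128883137 (plus strand), LAMB1 at chr7:108003162-108003411 (minus strand) and LAMB2 at chr3:49133051-49133300 (minus strand).
ITGA5: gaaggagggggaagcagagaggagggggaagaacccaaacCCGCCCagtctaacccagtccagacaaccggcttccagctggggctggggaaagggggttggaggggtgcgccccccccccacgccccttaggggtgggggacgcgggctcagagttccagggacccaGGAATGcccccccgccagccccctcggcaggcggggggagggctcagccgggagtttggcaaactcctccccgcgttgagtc
LAMA2: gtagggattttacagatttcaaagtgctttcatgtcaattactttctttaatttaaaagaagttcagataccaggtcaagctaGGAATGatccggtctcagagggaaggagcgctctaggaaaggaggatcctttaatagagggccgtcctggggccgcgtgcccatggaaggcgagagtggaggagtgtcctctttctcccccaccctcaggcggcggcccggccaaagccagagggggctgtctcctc
LAMB1: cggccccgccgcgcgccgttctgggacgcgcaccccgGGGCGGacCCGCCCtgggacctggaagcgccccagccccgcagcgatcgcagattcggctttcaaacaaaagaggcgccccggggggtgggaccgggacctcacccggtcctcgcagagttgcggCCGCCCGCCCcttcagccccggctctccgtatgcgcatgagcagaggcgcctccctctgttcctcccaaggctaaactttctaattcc
LAMB2: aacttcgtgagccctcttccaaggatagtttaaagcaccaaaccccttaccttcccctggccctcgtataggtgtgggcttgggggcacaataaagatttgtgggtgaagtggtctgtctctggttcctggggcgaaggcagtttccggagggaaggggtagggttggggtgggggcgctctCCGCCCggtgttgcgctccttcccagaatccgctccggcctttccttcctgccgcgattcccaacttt
ITGA5 holds 1 GC box match and 1 TEAD match, LAMA2 1 TEAD match, LAMB1 4 GC box matches, of which 2 overlap each other, and LAMB2 1 GC box match. Among all 35116 promoter entries cut to the same length, 42.6% hold a GC box match and 11.9% a TEAD match. The letters TGANTCA (AP-1), CACCTG (SNAI and ZEB factors), CCAAT and TATAAA, found in 6.57%, 17.5%, 32% and 10.7% of all entries on either strand, were in none of these 4 windows. Such letters were in an entry left out here because its gene has 2: 1 of the 2 entries of ITGA6, which fell, holds CACCTG 2 times and TATAAA 1 time, and neither entry of ITGAV, which rose, holds any of the motifs searched. The GC content was 70% for ITGA5, 53.2% for LAMA2, 70.4% for LAMB1 and 58.4% for LAMB2, against a median of 58% over all entries.

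ITGA6, the main laminin-binding alpha subunit of pluripotent cells, had the highest TPM of the alpha subunits. It was at 136 and 134 TPM in DMSO libraries and at 115 and 122 TPM with barasertib, and fell by 0.19 on the log2 scale (SE 0.05, adjusted p = 0.0387). ITGA6 missed the threshold whichever library was left out (adjusted p of 0.0559 to 0.145), with no filter (0.0580) and with no mean-variance trend (0.113). The level of ITGA6 differed between the deposited measures. The ratio of its coverage to its FPKM was 13.1% of the library maximum in all 4 libraries, whereas it was 63.9% or more for each of the other 21 tested members. In coverage scaled to 1 library total, ITGA6 was at 20.6 with DMSO and 18.1 with barasertib, below ITGA9 at 58.8 and 53.3. The direction of its change was the same on that scale, with a log2 change of -0.18 (adjusted p = 0.114).

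ITGA7, a laminin-binding subunit best known from muscle, was low, at 0.979 and 0.573 TPM with DMSO and 2.76 and 1.81 TPM with barasertib. Its DMSO mean of 0.776 TPM was below the filter, so it entered the test only through its barasertib values. It rose by a log2 change of 0.88 ± 0.23 (SE, adjusted p = 0.0333). It missed the threshold after median-of-ratios scaling (adjusted p = 0.0515), after quantile normalisation (0.0892), without the filter (0.0620), and when barasertib replicate 1 (0.162) or 2 (0.0617) or DMSO replicate 2 (0.0898) was left out, with values between 0.0167 and 0.162 across all settings tried.

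None of the remaining tested alpha subunits passed the test in TPM. ITGA9, a receptor for tenascin and other ligands, was at 52.0 and 49.3 TPM with DMSO and 43.5 and 47.9 TPM with barasertib (log2 change -0.15, adjusted p = 0.168). It passed as lower after median-of-ratios scaling (adjusted p = 0.0349, and up to 0.466 across all settings tried). The collagen receptors were lower in level: ITGA1 was at 4.05 and 4.26 TPM with DMSO and 4.12 and 5.67 TPM with barasertib, and its groups overlapped. ITGA2 was at 4.10 and 3.84 TPM with DMSO and 2.77 and 3.32 TPM with barasertib, without overlap (adjusted p = 0.150). ITGA1 overlaps PELO on the same strand, and PELO was at 24.4 to 30.2 TPM, so reads in the shared stretch are uncertain.

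ITGAE, which pairs with ITGB7 to bind E-cadherin, was at 5.54 and 5.39 TPM with DMSO and 7.0 and 7.21 TPM with barasertib. Its replicates differed little, yet the log2 change of 0.33 missed the threshold (adjusted p = 0.0547). It passed with a minimum of 5 TPM (adjusted p = 0.0486), without the mean-variance trend (0.0348) and in scaled coverage (0.0388), with values up to 0.293 across all settings tried. HASPIN, a kinase gene that lies inside ITGAE on the opposite strand, was at 23.6 to 28.6 TPM, and the sources used here do not say whether the authors' summary used strand. Its partner ITGB7 was listed at 0 in both DMSO libraries and was at 0.195 and 0.0724 TPM with barasertib. ITGA2B, known from platelets, was at 6.53 and 6.11 TPM with DMSO and 6.79 and 6.30 TPM with barasertib, and its groups overlapped. Its platelet partner ITGB3 was at 0.0848 TPM or less in every library, and the platelet markers GP9, PF4 and PPBP were listed at 0.

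**Figure D2:**
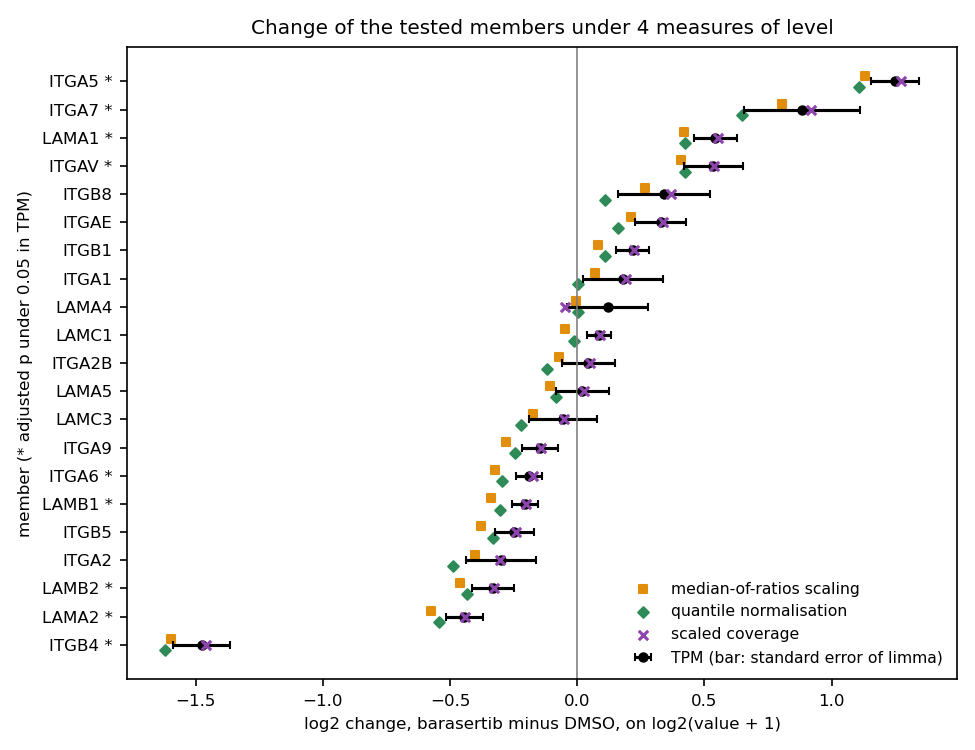
Log2 change (barasertib minus DMSO) of 21 of the 22 tested members in TPM with its standard error, and in TPM after median-of-ratios scaling, after quantile normalisation, and in scaled coverage. ITGB4 stands apart at the lower end and ITGA5 at the upper end under each measure, while LAMA4, LAMC1, ITGA2B and LAMA5 lie on both sides of 0.

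The other 16 members lay below a mean of 1 TPM, and none of their values was above 1.45 TPM. Of them, 10 were higher with barasertib without overlap, 0 were lower without overlap and 6 overlapped, against 31.8% higher and 6.67% lower among all genes below that mean and above 0. Among them were 3 leukocyte alpha subunits that lie close together on chromosome 16 in hg19: ITGAM from 31271288 to 31344213, ITGAX from 31366455 to 31394318 and ITGAD from 31404633 to 31437826. ITGAX was at 0.217 and 0.363 TPM with DMSO and 1.45 and 1.19 TPM with barasertib. ITGAM was at 0.184 and 0.0219 TPM with DMSO and 0.734 and 0.709 TPM with barasertib. ITGAD was listed at 0 in both DMSO libraries and was at 0.219 and 0.194 TPM with barasertib.

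All 3 neighbours were thus higher in both barasertib libraries, at low levels. In the fit without a filter ITGAX (adjusted p = 0.0220) and ITGAM (0.0278) passed and ITGAD did not (0.0537), where 4.89% of the genes below 1 TPM were called higher and 0.458% lower. ITGAL, a further leukocyte subunit on the same chromosome, was also higher without overlap, but did not pass in that fit (adjusted p = 0.606). It was at 0.105 and 0.0799 TPM with DMSO and 0.145 and 0.119 TPM with barasertib. ITGB2, the only beta partner of these 4 subunits, was at 0.0369 and 0.351 TPM with DMSO and 0.824 and 0.351 TPM with barasertib, so its groups met. Of 10 leukocyte markers 1 (CD4) had a mean of at least 1 TPM, and PTPRC and CD3E were listed at 0 in all 4 libraries. LCP1 was at 0.474 and 0.110 TPM with DMSO and 1.26 and 1.48 TPM with barasertib. CD14 was at 0.0662 and 0 TPM with DMSO and 0.308 and 0.420 TPM with barasertib. LYZ was listed at 0 with DMSO and was at 0.268 and 0.274 TPM with barasertib. LCP1, CD14 and LYZ were thus higher without overlap, and the other markers overlapped or were at 0. The summed list was at 1.59 to 2.17 TPM with DMSO and 3.75 to 4.55 TPM with barasertib. The part of such cells in these values was not tested.

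**Figure D3:**
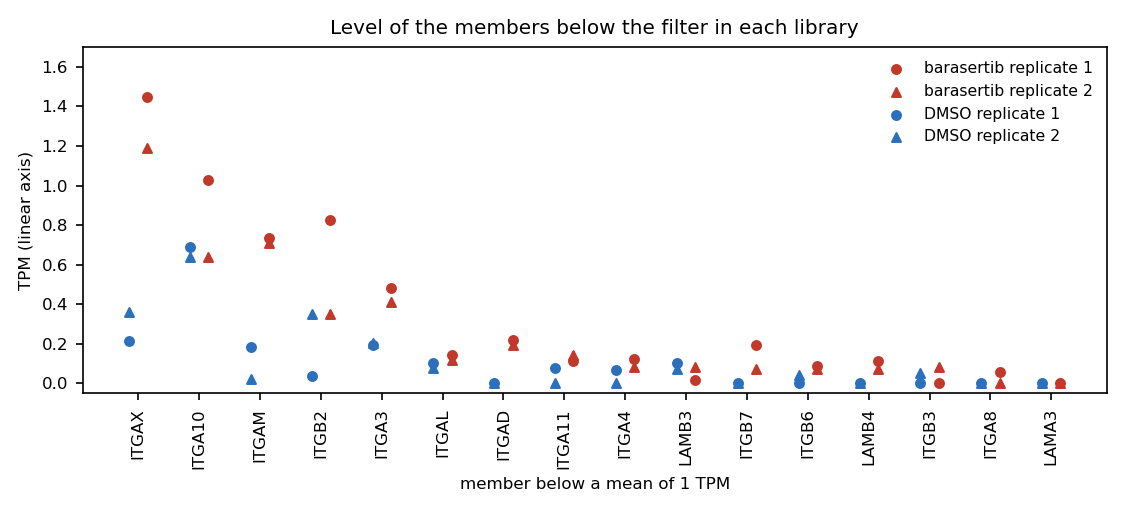
TPM (linear axis) of the 16 members below a mean of 1 TPM in each library. ITGAX, ITGAM and ITGAD are higher in both barasertib libraries than in both DMSO libraries, and LAMA3 is at 0 throughout.

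Of the other low members, LAMA3 was listed at 0 in all 4 libraries, and LAMB3 was at 0.0185 to 0.101 TPM, with overlap between the groups. ITGA3, a subunit that binds laminin, was at 0.194 and 0.207 TPM with DMSO and 0.484 and 0.410 TPM with barasertib, without overlap.

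Among the laminin alpha chains, LAMA1, the chain of the first embryonic basement membranes, was at 9.07 and 9.63 TPM in DMSO libraries and at 13.8 and 14.4 TPM with barasertib. LAMA1 rose by a log2 change of 0.54 ± 0.09 (SE, adjusted p = 0.00704). LAMA2, the chain of muscle and nerve basement membranes, was at 29.0 and 30.1 TPM in DMSO libraries and at 20.6 and 22.3 TPM with barasertib. LAMA2 fell by 0.44 on the log2 scale (SE 0.07, adjusted p = 0.00833). Neither pair of groups overlapped, and both calls held whichever library was left out (adjusted p of 0.0155 to 0.0444 for LAMA1 and 0.0208 to 0.0461 for LAMA2).

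LAMA5, the chain on which pluripotent cells are commonly grown, was at 15.1 and 16.5 TPM with DMSO and 17.5 and 14.7 TPM with barasertib, and its groups overlapped (log2 change 0.02 ± 0.10, adjusted p = 0.899). LAMA4, a chain of vascular basement membranes, was at 10.7 and 10.9 TPM with DMSO and 14.2 and 9.88 TPM with barasertib (adjusted p = 0.603). The high LAMA4 value was in barasertib replicate 1, where the ratio of coverage to FPKM was 63.9% of the library maximum, against 84.1% to 87.2% in the other libraries. In scaled coverage LAMA4 was at 10.7 with DMSO and 10.3 with barasertib.

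Both abundant laminin beta chains fell. LAMB1, the common beta chain, was at 88.6 and 87.2 TPM with DMSO and 75.7 and 76.5 TPM with barasertib, and fell by 0.21 on the log2 scale (SE 0.05, adjusted p = 0.0275). LAMB2, its close relative, was at 23.7 and 25.7 TPM with DMSO and 20.2 and 18.5 TPM with barasertib, and fell by 0.33 (SE 0.08, adjusted p = 0.0293). Neither gene's groups overlapped. LAMB1 missed the threshold whichever library was left out (adjusted p of 0.0749 to 0.122). LAMB2 missed it when barasertib replicate 1 (0.0596) or 2 (0.113) or DMSO replicate 2 (0.124) was left out, and passed without DMSO replicate 1 (0.0452). Both were also lost without the mean-variance trend (0.0804 and 0.0584), and LAMB2 without the filter (0.0616).

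LAMC1, the gamma chain of most laminins, was at 94.4 and 92.9 TPM with DMSO and 99.3 and 99.4 TPM with barasertib. Its groups did not overlap, but the log2 change of 0.08 ± 0.05 (SE) missed the threshold (adjusted p = 0.226), and its sign turned after median-of-ratios scaling (-0.05) and quantile normalisation (-0.01). LAMC3 was at 5.82 and 6.97 TPM with DMSO and 6.63 and 5.59 TPM with barasertib, with overlap. Summed over the class, beta chains were at 113 ± 0.406 TPM in DMSO libraries and 95.6 ± 0.661 TPM with barasertib, gamma chains at 101 ± 0.187 and 107 ± 1.28 TPM, and alpha chains at 65.5 ± 2.28 and 63.7 ± 3.38 TPM. With DMSO the beta sum was thus above the gamma sum in both libraries, and with barasertib it was below it in both.

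Shares within a class do not change when a whole library is multiplied by a factor. They are given without a test, since 2 against 2 libraries cannot give an exact two-sided permutation p below 0.333. The share of LAMA1 among laminin alpha chains was 14.2% and 14.3% with DMSO and 20.9% and 23.4% with barasertib. The share of LAMA2 was 45.3% and 44.8% with DMSO and 31.2% and 36.4% with barasertib. LAMA2 thus stayed the leading alpha chain in every library, with a smaller lead. LAMB1 held 77.2% to 80.4% of the beta chains and LAMC1 92.2% to 93.9% of the gamma chains, with overlap between the groups.

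Among integrin beta subunits, the share of ITGB1 was 75.8% and 74.3% with DMSO and 83.7% and 82.6% with barasertib. The share of ITGB4 was 6.56% and 8.22% with DMSO and 2.04% and 2.43% with barasertib, and that of ITGB5 was 17.2% and 16.7% against 13.1% and 13.9%. Among alpha subunits, ITGA6 held 59.9% in both DMSO libraries and 52.8% and 52.9% with barasertib in TPM. In scaled coverage ITGA6 held 16.8% in both DMSO libraries and 13.2% and 13.3% with barasertib, and ITGA9 led with 48.7% and 47.2% against 38.2% and 39.8%. The share of ITGA5 was 2.23% and 2.18% with DMSO and 6.28% and 5.52% with barasertib in TPM, and 4.74% and 4.67% against 12.0% and 10.6% in scaled coverage. On both measures the groups did not overlap for these 3 alpha subunits, and the order of ITGA6 and ITGA9 differed between the measures.

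**Figure D4:**
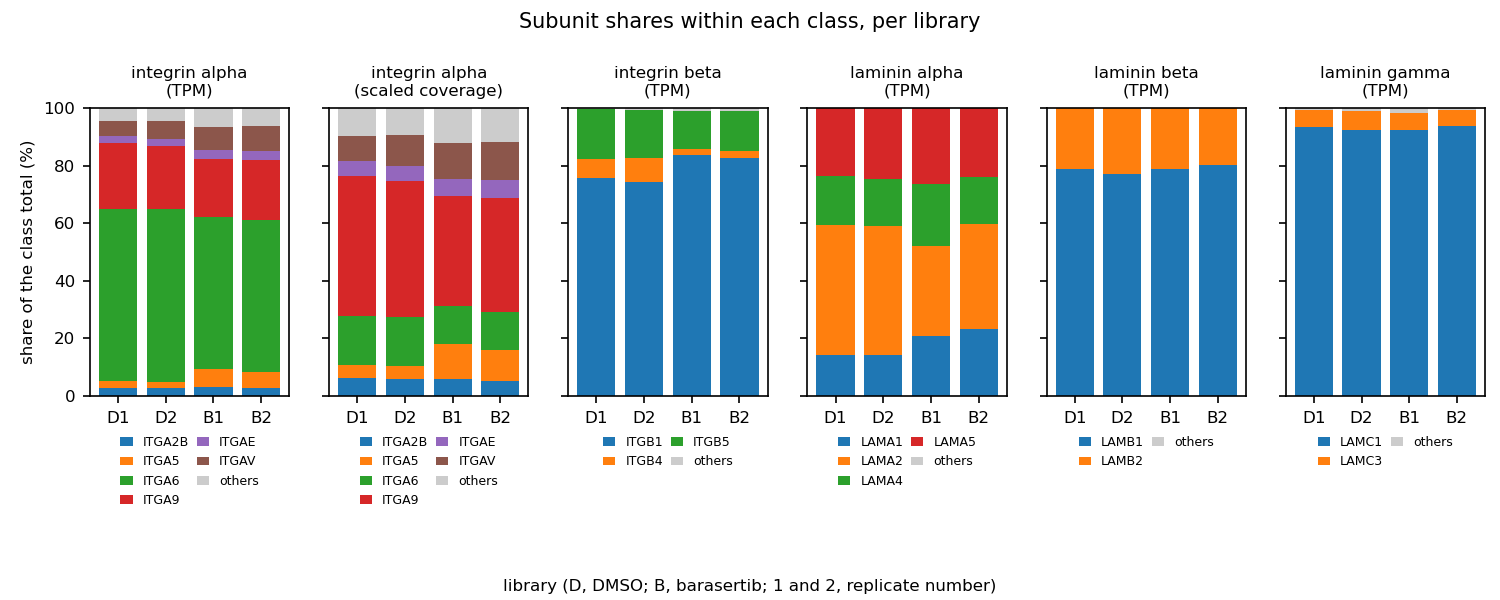
Share (%) of each subunit in the summed level of its class, 1 bar per library, in TPM and, for integrin alpha subunits, also in scaled coverage. Subunits that stay under 5% in every library on both measures are summed as others. ITGB4 and LAMA2 take smaller shares and ITGA5 and LAMA1 larger shares in both barasertib libraries.

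Genes that work with these receptors were counted from lists made for this comparison, to be read against 22.0% higher and 7.44% lower over all tested genes, and 10.0% and 7.05% under all 3 scalings. Of the ligands of integrins other than laminins, 12 of 19 tested genes rose and 1 fell, or 63.2% and 5.26%, with a list median log2 change of 0.54 against 0.11 for all tested genes. SPP1 (osteopontin), a ligand of ITGAV and ITGA9, rose from 126 ± 0.0348 to 346 ± 3.05 TPM. The matricellular ligands CCN2 and CCN1 rose, from 2.32 ± 0.376 to 8.13 ± 1.25 TPM for the first and from 12.7 ± 0.193 to 35.0 ± 0.555 TPM for the second. POSTN (periostin) rose from 5.40 ± 0.0274 to 16.3 ± 1.39 TPM. FN1 (fibronectin), the ligand of ITGA5 and named after its values were seen, rose from 73.9 ± 4.82 to 92.8 ± 0.624 TPM. FN1 missed the threshold after median-of-ratios scaling (adjusted p = 0.0729) and without barasertib replicate 1 (0.0618) or 2 (0.0649). The gene that fell was CDH1 (E-cadherin), the ligand of ITGAE, also named after its values were seen, from 20.3 ± 0.411 to 7.33 ± 0.372 TPM. Under all 3 scalings 10 rose and 1 fell (52.6% and 5.26%), and without barasertib replicate 1 or 2 there were 8 and 1.

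POSTN and COL3A1, and the untested COL1A1 and COL1A2, are on both the ligand list and the list of 10 stroma markers. Of the stroma markers 3 rose (POSTN, PDGFRA and TWIST1). The stroma list summed to 16.8 to 18.8 TPM with DMSO and 34.9 to 38.1 TPM with barasertib. POSTN made up 5.42 and 5.38 TPM of it with DMSO and 15.3 and 17.3 TPM with barasertib. PDGFRA was at 7.02 and 7.63 TPM with DMSO and 10.0 and 10.6 TPM with barasertib, and TWIST1 at 2.71 and 3.51 TPM and at 5.93 and 6.97 TPM. COL1A1, below the filter, was at 0.497 and 0.210 TPM with DMSO and 1.41 and 0.990 TPM with barasertib, without overlap. FAP was listed at 0 in all libraries, and COL1A2, DCN, LUM and PDGFRB did not exceed 0.294 TPM. The part of stroma-like cells in these values was not tested.

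Of 17 tested genes for other parts of the basement membrane 8 rose and 1 fell (47.1% and 5.88%), and 4 and 1 did under all 3 scalings (23.5% and 5.88%). NID1 (nidogen), which links laminin to collagen IV, rose from 11.5 ± 0.207 to 20.7 ± 0.126 TPM, and AGRN (agrin), a proteoglycan that binds laminin, from 30.6 ± 0.418 to 46.7 ± 4.97 TPM. COL18A1 and the peroxidase gene PXDN, which crosslinks collagen IV, rose, from 131 ± 1.29 to 189 ± 19.5 TPM for the first and from 67.1 ± 5.34 to 96.0 ± 0.0207 TPM for the second. FRAS1, picked out after its value was seen, went from 23.2 ± 1.59 to 19.0 ± 0.354 TPM and was called lower, a call lost whichever library was left out.

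Of 17 non-integrin laminin receptors and enzymes that put sugars on dystroglycan, 4 rose and 0 fell, with a list median of 0.02. That is 23.5% higher against 22.0% of all tested genes in TPM, and the same 23.5% against 10.0% under all 3 scalings. The 4 were the surface proteoglycans SDC4, SDC1 and SDC2 and the adhesion molecule MCAM. SDC4, which acts with ITGA5 and ITGB1 on fibronectin, rose from 25.5 ± 2.02 to 54.9 ± 0.0785 TPM, and MCAM from 15.5 ± 0.495 to 27.9 ± 0.436 TPM. SDC1 and SDC2 rose, from 2.38 ± 0.0798 to 5.44 ± 0.00228 TPM for the first and from 8.02 ± 0.942 to 15.8 ± 0.277 TPM for the second. With median-of-ratios scaling 3 genes of this list fell.

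On the inner side of the membrane, 8 of 23 integrin activators and adaptors rose and 1 fell (34.8% and 4.35%), but 4 and 1 did under all 3 scalings (17.4% and 4.35%), and 4 to 5 rose with a library left out. FLNA (filamin A), which links integrin tails to actin, rose from 249 ± 8.08 to 416 ± 20.8 TPM. The adaptors ZYX (zyxin) and PXN (paxillin) rose, from 121 ± 8.28 to 202 ± 19.3 TPM for the first and from 41.2 ± 0.322 to 61.0 ± 2.58 TPM for the second. TGFB1I1, a relative of paxillin, was called higher at 0.790 ± 0.187 and 2.22 ± 0.789 TPM, a call lost whichever library was left out. TGFB1I1 also passed the filter only through its barasertib values. TNS3 (tensin), named after its value was seen, fell from 44.0 ± 0.0516 to 31.5 ± 1.09 TPM.

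Of 24 adhesion kinases and effectors 9 rose and 1 fell (37.5% and 4.17%), and 3 and 1 did under all 3 scalings (12.5% and 4.17%, close to the 10.0% higher over all tested genes), and 4 to 5 rose with a library left out. NEDD9, a scaffold that is also known from mitosis, rose from 3.88 ± 0.816 to 10.2 ± 0.765 TPM. The kinase genes PAK1 and YES1 rose, from 108 ± 3.67 to 156 ± 3.23 TPM for the first and from 50.9 ± 0.550 to 65.5 ± 2.61 TPM for the second. BCAR1 (p130Cas), the scaffold related to NEDD9, rose from 21.8 ± 1.44 to 27.3 ± 0.0934 TPM. BCAR1 missed the threshold after median-of-ratios scaling (adjusted p = 0.126) and quantile normalisation (0.0798), with no filter (0.0523), with no mean-variance trend (0.0536), and when barasertib replicate 1 (0.0931) or 2 (0.0941) or DMSO replicate 1 (0.122) was left out. FYN, picked out after its value was seen, went from 124 ± 5.43 to 103 ± 1.31 TPM and was called lower, a call that held without DMSO replicate 1 and was lost without each of the other libraries.

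Of 9 tetraspanins and other membrane partners 5 rose and 1 fell (55.6% and 11.1%), 3 and 1 under all 3 scalings (33.3% and 11.1%). CD151, the tetraspanin that binds laminin-binding integrins, rose from 46.4 ± 1.82 to 69.2 ± 4.27 TPM, CD81 from 167 ± 3.43 to 239 ± 5.73 TPM and CD82 from 4.17 ± 0.110 to 7.06 ± 1.00 TPM. CD82 missed the threshold after quantile normalisation (adjusted p = 0.0519), with no filter (0.0505) and without barasertib replicate 2 (0.0743). SLC3A2, which binds integrin beta tails and also carries amino acid transporters, fell from 662 ± 38.2 to 509 ± 5.05 TPM. Of 10 genes of integrin trafficking, RAB11A was called higher and RAB25 lower (10% each), and both calls were lost whichever library was left out.

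**Figure D5:**
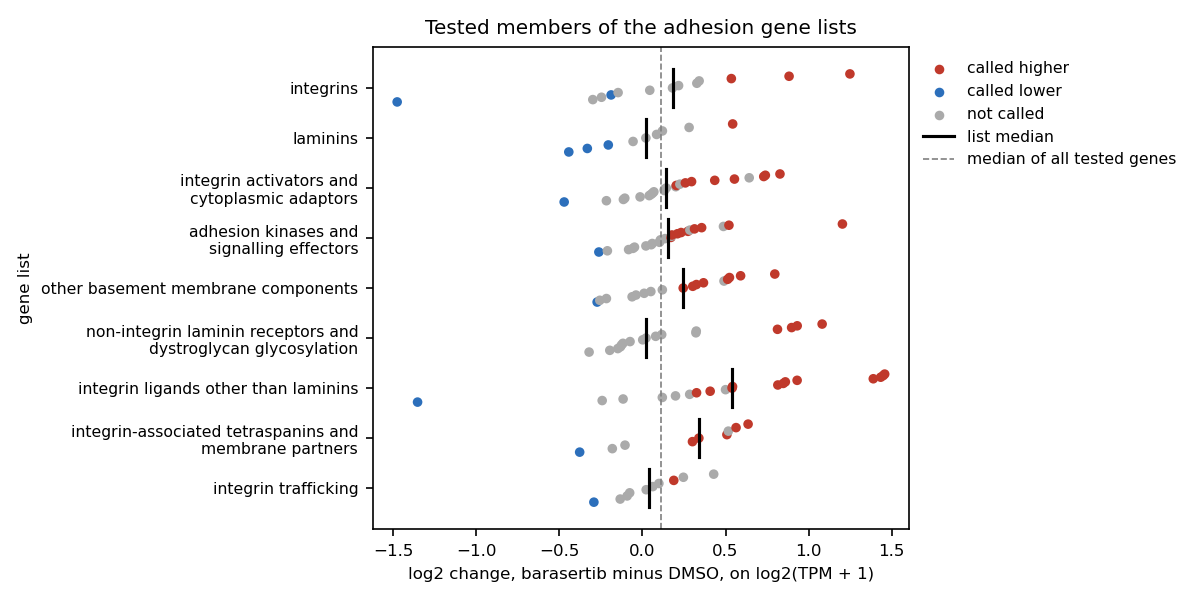
Log2 change on log2(TPM + 1) of each tested gene (point) of the integrins, the laminins and the 7 adhesion gene lists, with the list median (black bar) and the median of all tested genes (dashed line at 0.11). The ligands other than laminins reach furthest to the right, with a median of 0.54, and ITGB4 and CDH1 lie furthest to the left.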

How the data were processed

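The 4 libraries were made from polyadenylated RNA with a stranded kit, per the labels' protocols. The submitters' processing notes name HISAT2, StringTie and the build hg19, with no versions or options. The authors deposited coverage (mean depth per base, used here as signal), FPKM and TPM for each gene row, per the file headers. Rows were summed per gene ID. RefSeq (GRCh38.p14) names matched 27559 of 27685 IDs, and sequences came from its promoter table. Positions are those of the files.

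The 13938 genes averaging 1 TPM or more entered limma 3.58.1 (R 4.3.3) as log2(TPM + 1), modelling group alone with a mean-variance trend. Tests were two-sided, p-values were adjusted by Benjamini-Hochberg across the tested genes, and the threshold was 0.05 (2 residual and 4.09 prior degrees of freedom). The fit was tested on simulated data drawn from its own variance model, with 200 of the 13938 genes changed, far fewer than were called here. It called 43.6% of 1.5-fold and 71.2% of 2-fold changes. A missed threshold therefore does not show that a gene was unchanged. Scaled coverage is coverage divided by its library sum, times 1000000.

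The members and lists were chosen with earlier results of these data known. The values of 1 tested member are not reported here, although it is counted. Named were the other members the results turn on and, per list, up to 4 called genes with the largest change. Other genes of these lists are said to be named after their values were seen. Cell type markers were planned as counts and sums. Apart from POU5F1, SOX2, NANOG and POSTN, single markers were also named after their values were seen. The alternatives were other filters (none, or 5 TPM), pseudocounts (0.1 and 5), FPKM, median-of-ratios scaling, quantile normalisation, no trend, robust moderation, a replicate block, each library left out, a 2-fold threshold and the largest row per ID. Scaled coverage was added after the data were seen. The files hold no counts, so no counting interval is given. Tables and plots were made in Python 3.11.15 with matplotlib 3.10.9.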

Additional observations from a re-analysis of the deposited data

How the results depend on the processing

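Counts of called genes depended on the setting. Over all tested genes 3071 were higher and 1037 lower. The counts were 1534 and 1891 after median-of-ratios scaling, 1649 and 1590 after quantile normalisation, and 292 and 87 with a 2-fold minimum. Without the mean-variance trend 674 were lower. With each library left out in turn, 1365 to 2181 were higher and 601 to 699 lower. Integrins called higher numbered 1 to 3 and those called lower 1 to 2 with a library left out, and 1 and 1 with a 2-fold minimum. Integrins called lower numbered 1 without the filter, 1 without the trend, 1 in scaled coverage and 4 after median-of-ratios scaling. Laminins called higher stayed at 1 with a library left out, and those called lower numbered 1 to 2. Laminins called lower numbered 1 without the trend, and with a 2-fold minimum 0 laminins were called in either direction.

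For the 22 tested members, 343 values under alternatives were computed: 303 kept the side of the threshold, 27 lost the call, 13 gained one and 0 reversed a called direction. Other filters, no trend, robust moderation, the block and the largest row per ID left the log2 changes of the members as they were. These settings could therefore not reverse a direction. In scaled coverage the change in share was 6.58 percentage points for ITGA5, -3.53 for ITGA6 and -8.99 for ITGA9, against 3.70, -7.02 and -2.07 in TPM. ITGA6 takes a smaller part of the alpha sum in scaled coverage. The change in the share of LAMA4 ran from -0.41 to 4.95 points with a library left out.

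The libraries share only replicate numbers: the deviations of same-numbered libraries correlated at 0.023. With the replicate number as a block 3218 genes were higher and 1080 lower, and ITGB1 passed as higher (adjusted p = 0.0223). Read counts are not in the files, so the precision of members near 0 is not known.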
